A study of Mus musculus with 30 samples.

Results

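Activated CD8 T cells of Furin knockout (KO) mice were compared with those of wild-type (WT) mice after culture with IL12. The 10 libraries were chosen by their labels, as those with IL12 in the title, out of 30 libraries in the series. They comprised 5 KO libraries, numbered 63, 68, 70, 73 and 74, and 5 WT libraries, numbered 62, 67, 71, 72 and 75. KO 63 and WT 62 came from males and the other 8 from females. All mice were on the C57BL/6 background and 8 weeks old. Naive CD8-positive cells were isolated magnetically from spleen and lymph nodes and kept for 3 days in serum-free medium. All 10 cultures were stimulated by plate-bound anti-CD3 and anti-CD28 at 5 µg/ml and recombinant IL12 (10 ng/ml). The other 20 libraries were KO and WT cells under the same stimulation with no cytokine or with TGFB1. No label gives the deleted part of Furin or the cells that lack it. No label says that a number stands for 1 animal, so p values measure the spread between libraries. For single genes the main fit estimated that spread over all 30 libraries, with no term for a shared number. Values per library are given below in the order of the numbers above.

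IL12 is a cytokine of antigen-presenting cells. It signals through the receptor chains IL12RB1 and IL12RB2, the kinases JAK2 and TYK2 and the factor STAT4. In CD8 T cells it promotes interferon-gamma, granzymes and the factor T-bet (Tbx21). FURIN is a protease of the secretory pathway that cuts precursor proteins, such as those of TGFB1 and of growth factors, after basic residues. Interferon-gamma in turn induces genes of antigen presentation through factors such as IRF1.

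Furin itself (chromosome 7, 80388585 to 80405436, minus strand; all coordinates are GRCm38) had 161, 120, 132, 196 and 463 CPM (counts scaled to a common library size) in the KO libraries, against 161, 182, 511, 533 and 485 CPM in the WT libraries. KO 74 lay with WT 71, 72 and 75, and WT 62 and 67 lay with the other KO libraries. The log2 fold change was -0.81 ± 0.28 (SE) and was not called (edgeR adjusted p = 0.0799). It was called without KO 74 (-1.30), WT 62 (-0.996) or WT 67 (-0.98). Without any other single library it was -0.78 to -0.64, with an adjusted p of 0.111 to 0.242, and without WT 72 and 75 it was -0.41 (adjusted p = 0.607). A gene-level count includes exons outside any deleted part, so these levels are no check on the genotype, and KO stands below for the libraries labelled KO.

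Total counts were 8464699 to 15502443 in KO and 7306151 to 10406630 in WT. The first principal component held 37.4% of the variance, and WT 72 and 75 lay at its high end (36.2 and 39.0), followed by WT 71 (19.4) and KO 74 (6.92). The other 6 libraries lay between -23.5 and -1.27. WT 72 and 75 also stood apart in the share of ribosomal protein genes and in their slope on gene length, described below. Markers of CD8 T cells were present in every library, with a summed level of 5657 to 6232 CPM in KO libraries and 5898 to 6774 CPM in WT. Their list also holds genes not particular to CD8 cells, such as Thy1, Lck and Ptprc. The CD4 gene averaged 0.34 CPM in KO libraries and 0.16 CPM in WT. Among the markers of other cell types, 20 were at 0 in all 10 libraries, including S100a8 and S100a9 of granulocytes, Xcr1 and Clec9a of dendritic cells and C1qa, C1qb and C1qc of macrophages. Other markers were present, with means of 337 CPM in KO libraries and 361 CPM in WT for Ighm of B cells, 101 CPM in KO libraries and 138 CPM in WT for Batf3 of dendritic cells, and 7.74 CPM in KO libraries and 6.25 CPM in WT for Mcpt8 of basophils. The B cell marker Cd79b had 7.52, 7.26, 6.64, 6.83 and 6.26 CPM in KO, against 8.47, 11.6, 11.3, 12.5 and 11.5 CPM in WT. It fell without overlap (-0.69 ± 0.17, edgeR adjusted p = 0.0175), and its call ended without WT 72 or WT 75 (adjusted p = 0.058 and 0.059). The part of these markers in the results below was not tested. In bulk RNA, fewer cells of a type and less RNA per cell cannot be told apart.

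By edgeR's quasi-likelihood test, 794 of 11718 genes tested (6.78%) differed between KO and WT (adjusted p below 0.05, here called). Of these, 324 (2.76%) were higher and 470 (4.01%) lower in KO, and these shares are the background for the counts below. At least a doubling or halving was seen for 49 of the higher and 55 of the lower genes. At an unadjusted p below 0.05 there were 2865 genes. All KO libraries lay above all WT libraries for 269 genes (2.3%) and below them for 324 genes (2.76%).

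The number of calls rested on few libraries. Leaving out 1 library gave 174 (without WT 75) to 1530 (without WT 62) called genes, and 149 genes, 62 higher and 87 lower in KO, were called in all 10 such fits. The count was 230 without WT 72, 271 without KO 68, 336 without KO 70, 522 without WT 71 and 1230 without WT 67. Genes lower in KO numbered 96 without WT 75, 134 without WT 72, 163 without KO 68 and 201 without KO 70. They numbered 285 without KO 63, 329 without WT 71 and 392 without KO 74. Without KO 73, WT 67 and WT 62 they numbered 565, 709 and 821. Genes higher in KO ran from 78 (without WT 75) to 709 (without WT 62). These fits tested 11812 to 11862 genes, and their counts are the background for list members below with 1 library left out. Without WT 72 and 75 together, 8 genes were called, and without WT 71 and 75, 3. Without WT 62 and 67, 2664 genes were called. A fit of the 10 IL12 libraries alone, whose spread is not shared with the other 20, called 45 genes. The plot of calls with libraries left out shows the number called without each library and without each pair of WT libraries.

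**Figure D1:**
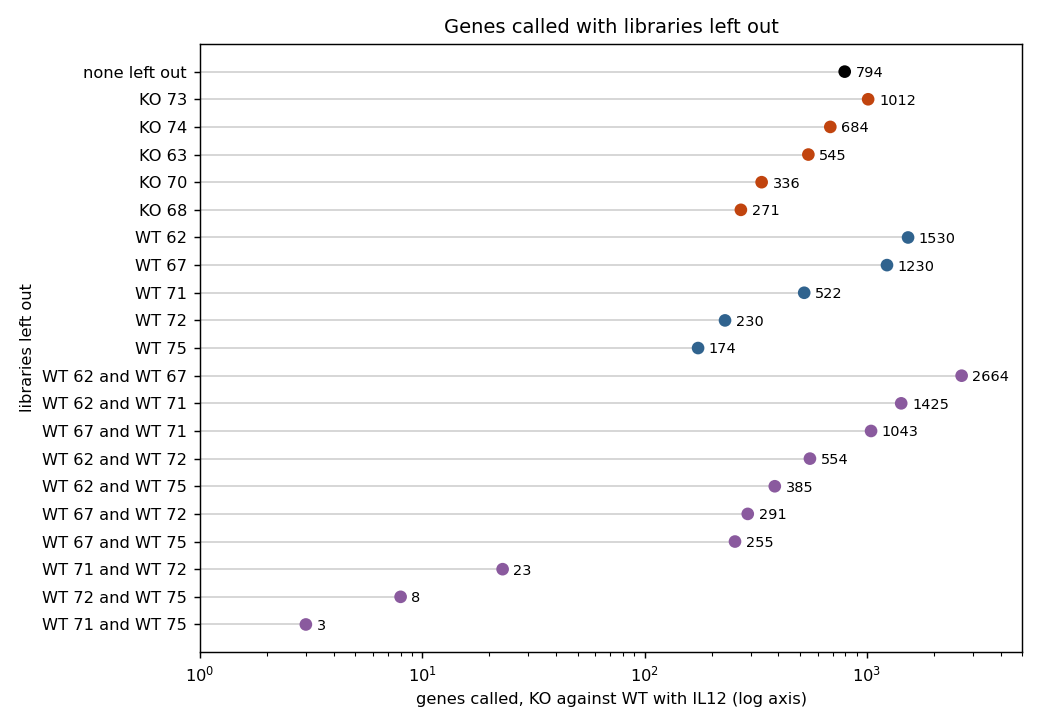
Genes called between KO and WT with IL12 (horizontal axis, log scale) when the libraries named on the vertical axis are left out of the fit of all 30. The 3 fits without a pair from WT 71, 72 and 75 gave 3 to 23 calls, against 794 with no library left out.

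Of all 794 genes, 8 stayed called without WT 72 and 75. Tspan9, a tetraspanin membrane protein (chromosome 6, 127961396 to 128143594, minus strand), had 0.231, 0.382, 0.173, 0.171 and 0.165 CPM in KO, against 2.19, 1.94, 1.16, 2.21 and 2.18 CPM in WT. Every KO library lay below every WT library, at a low level. The log2 fold change was -2.98 ± 0.36 (adjusted p = 4.12e-05). Pls1, which bundles actin filaments (chromosome 9, 95752642 to 95845311, minus strand), had 7.52, 11.1, 12.2, 7.69 and 12.4 CPM in KO, against 3.83, 3.68, 1.54, 1.47 and 2.69 CPM in WT. The groups did not overlap (1.96 ± 0.27, adjusted p = 0.000169). Ncoa1, a coactivator of nuclear receptors (chromosome 12, 4247362 to 4477182, minus strand), had 35.6, 32.0, 34.2, 36.6 and 36.5 CPM in KO, against 23.6, 24.1, 20.7, 19.6 and 17.9 CPM in WT. It was the most even of these genes within KO, and its log2 fold change was 0.72 ± 0.10 (adjusted p = 0.000169). Tspan9, Pls1 and Ncoa1 were called under all 27 alternative fits.

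Pdgfb, a growth factor chain made as a precursor (chromosome 15, 79995874 to 80014977, minus strand), had 17.7, 23.1, 27.5, 17.9 and 35.9 CPM in KO, against 9.57, 9.30, 5.97, 10.6 and 8.39 CPM in WT. Pik3ap1, an adaptor that couples receptors to phosphoinositide 3-kinase, had 18.6, 22.7, 21.7, 18.9 and 25.9 CPM in KO, against 10.7, 11.8, 12.717, 13.6 and 9.74 CPM in WT. Neither gene overlapped between the groups, and their log2 fold changes were 1.48 ± 0.25 and 0.88 ± 0.15 (adjusted p = 0.00226 for each). Inhba, the beta A chain of activin (chromosome 13, 16011851 to 16031621, plus strand), had 2.20, 3.06, 3.11, 2.56 and 16.1 CPM in KO, against 0.137, 0.484, 0.674, 1.58 and 0.518 CPM in WT. The high mean in KO came from KO 74, and without it the log2 fold change was 1.97 in place of 2.95 ± 0.54 (adjusted p = 0.00327 with it). The other 2 genes were named after their values were seen. Axl, a receptor tyrosine kinase, averaged 24.1 ± 5.53 CPM in KO libraries and 10.6 ± 3.28 CPM in WT (SD, n = 5 each), with all KO above all WT (1.19 ± 0.22, edgeR adjusted p = 0.00353). Chchd10, a mitochondrial protein, averaged 47.2 ± 9.90 CPM in KO libraries and 79.1 ± 12.2 CPM in WT (SD, n = 5 each), with all KO below all WT (-0.75 ± 0.14, edgeR adjusted p = 0.00436).

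**Figure D2:**
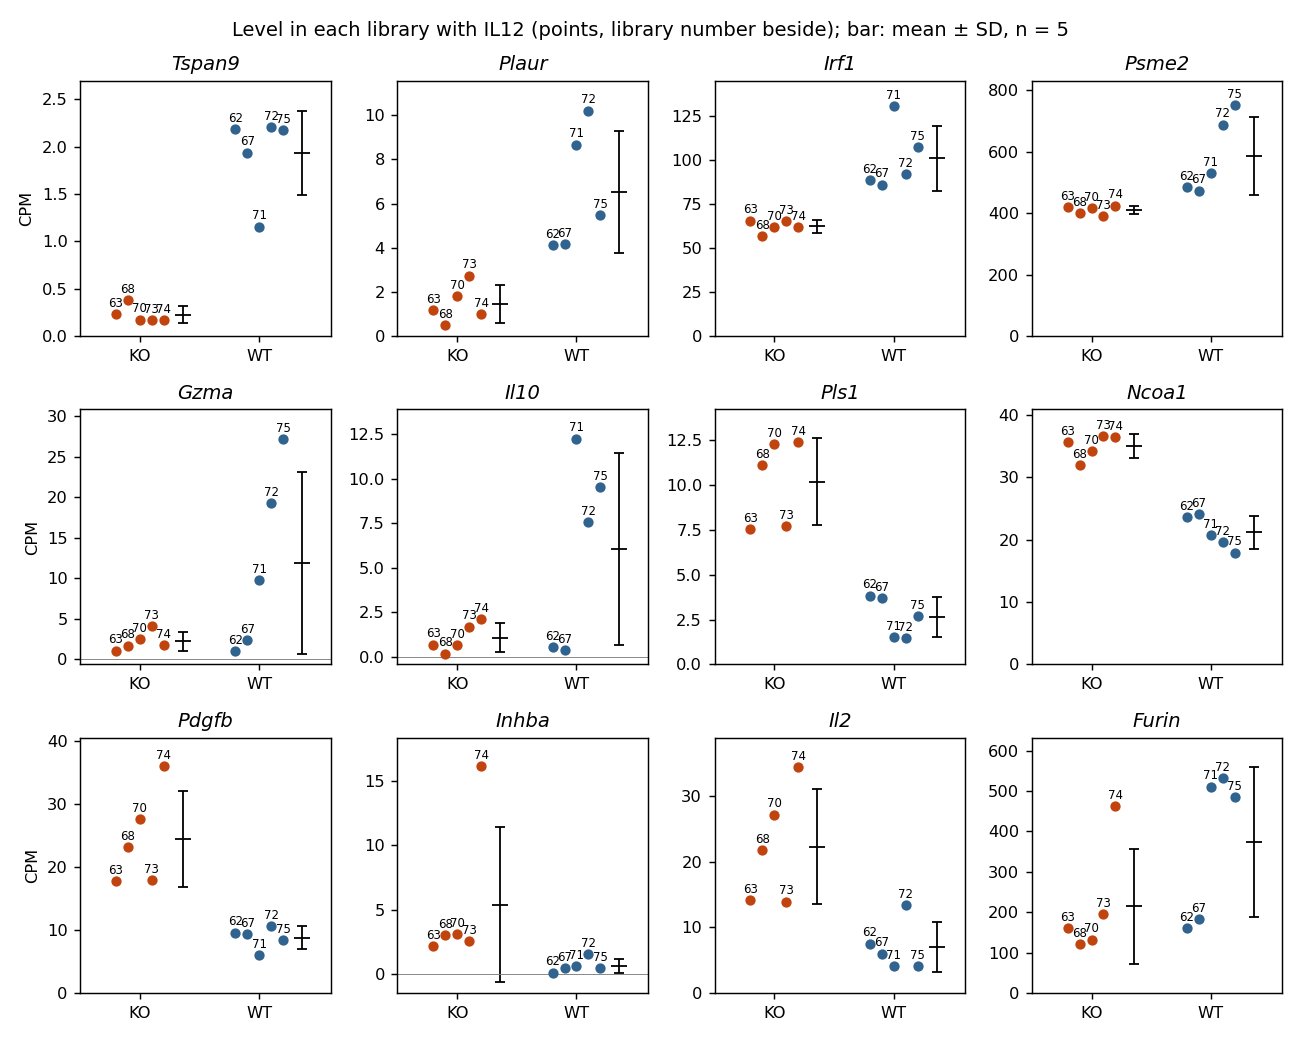
CPM of 12 genes in each of the 10 libraries with IL12, KO left and WT right, with the library number beside each point and the mean ± SD (n = 5) as a bar. Tspan9 stays at or below 0.382 CPM in KO libraries and at or above 1.16 CPM in WT, whereas Il10 and Gzma are high in WT 71, 72 and 75 alone.

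A list for IL12, chosen with earlier results known, held receptor and signalling genes and also output genes such as Il10 and Irf1. Of its 19 measured genes 1 rose and 2 fell, beside 6.78% of all genes called in either direction. The median log2 fold change of all 19 was -0.32. Jak2, the kinase bound to IL12RB2, had 110, 136, 135, 116 and 146 CPM in KO, against 100, 94.3, 94.6, 79.999 and 71.7 CPM in WT, with no overlap (0.54 ± 0.09, adjusted p = 0.00234). Il12rb1 averaged 65.9 ± 17.9 CPM in KO libraries and 56.5 ± 4.62 CPM in WT, Il12rb2 234 ± 92.5 CPM in KO libraries and 282 ± 106 CPM in WT, and Stat4 68.2 ± 9.02 CPM in KO libraries and 83.4 ± 16.8 CPM in WT (SD, n = 5 each). None of these 3 was called (adjusted p = 0.394, 0.531 and 0.241). The 2 genes that fell were Il10 and Irf1, described below. The number that fell was 1 without KO 68 or WT 75, 4 without KO 74, 5 without WT 67 and 8 without WT 62. Over all genes 96 fell without WT 75 and 821 without WT 62, against 470 with no library left out.

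Neither the effector genes Ifng and Gzmb nor the factor gene Tbx21 was called by edgeR. Ifng had 338, 419, 440, 566 and 1425 CPM in KO, against 276, 302, 750, 1370 and 1282 CPM in WT. Tbx21 had 102, 106, 106, 107 and 177 CPM in KO, against 83.8, 85.4, 141, 157 and 142 CPM in WT. For both genes KO 74 stood with WT 71, 72 and 75 at the high end, and the adjusted p was 0.673 and 0.947. The sign of both changes reversed under some alternatives. Gzmb, granzyme B, had 2070, 2298, 2251, 2696 and 3261 CPM in KO, against 2239, 2419, 4594, 5411 and 6084 CPM in WT. WT 71, 72 and 75 exceeded every KO library and WT 62 and 67 did not, and the gene was not called (-0.72 ± 0.41, adjusted p = 0.279).

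The cytokine genes moved in both directions, with 2 of 24 higher and 2 lower in KO, and 4 higher without KO 73. Il2, the growth factor of T cells, had 14.1, 21.8, 27.2, 13.9 and 34.4 CPM in KO, against 7.52, 6.01, 4.05, 13.4 and 4.14 CPM in WT. KO lay above WT, with KO 73 and WT 72 close together (1.68 ± 0.43, adjusted p = 0.0195). The call ended without KO 70, WT 71 or WT 75 (adjusted p = 0.051, 0.052 and 0.077). Spp1, the cytokine osteopontin, rose by 1.21 ± 0.31, a call that ended without KO 68, KO 70, WT 72 or WT 75 (adjusted p = 0.075, 0.071, 0.06 and 0.082). Il10, an inhibitory cytokine, had 0.694, 0.191, 0.690, 1.71 and 2.14 CPM in KO, against 0.547, 0.388, 12.2, 7.58 and 9.53 CPM in WT. It was high in WT 71, 72 and 75, while WT 62 and 67 lay within the KO range, and its call ended without KO 68 or WT 75 (adjusted p = 0.051 and 0.059). Ltb, a membrane-bound lymphotoxin chain, had 172 to 327 CPM in KO libraries and 364 to 422 CPM in WT (-0.56 ± 0.16, adjusted p = 0.0331). Its call ended without any of KO 68, 70 and 74 and WT 71, 72 and 75 (adjusted p of 0.06 to 0.092).

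Of 15 genes of cytotoxic cells 0 rose and 2 fell. Gzma, granzyme A, had 1.04, 1.66, 2.42, 4.10 and 1.73 CPM in KO, against 0.957, 2.33, 9.73, 19.3 and 27.2 CPM in WT. WT 71, 72 and 75 were high, and without WT 72 and WT 75 in turn the adjusted p was 0.055 and 0.084. Fasl, the ligand of the death receptor FAS, had 9.14, 9.42, 12.3, 11.1 and 8.07 CPM in KO, against 15.4, 14.4, 23.8, 22.9 and 22.8 CPM in WT, with no overlap. Its log2 fold change was -0.99 ± 0.23 (adjusted p = 0.0108), and it was called whichever library was left out. Prf1, the pore protein perforin, averaged 254 ± 78.4 CPM in KO libraries and 226 ± 50.9 CPM in WT (SD, n = 5 each) and was not called.

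Genes of T cell activation moved in both directions. Of 34 genes 5 rose and 2 fell. Cd44, an adhesion receptor that marks activated and memory T cells, had 153, 202, 206, 164 and 244 CPM in KO, against 130, 127, 96.4, 105 and 92.7 CPM in WT (0.82 ± 0.15, adjusted p = 0.00389). Rel, an NF-kappaB subunit that acts on Il2, had 73.9, 87.6, 89.4, 78.2 and 76.9 CPM in KO, against 66.1, 58.3, 49.5, 42.2 and 34.3 CPM in WT (0.70 ± 0.14, adjusted p = 0.00436). Neither gene overlapped between the groups. Cd28, the receptor engaged by an antibody in the culture, rose by 0.38 ± 0.09, also without overlap. Cd2, an adhesion molecule of T cells, had 183, 145, 164, 223 and 138 CPM in KO, against 242, 280, 341, 341 and 349 CPM in WT, a fall of 0.86 ± 0.17 on the log2 scale (adjusted p = 0.00436). Tnfrsf18, the costimulatory receptor GITR, fell by 0.68 ± 0.14. Dusp2 and Egr2, induced by T cell receptor signals, rose by 0.58 ± 0.15 and 0.76 ± 0.23. Dusp2 lost its call without 5 of the libraries (KO 68, KO 70, WT 71, WT 72 or WT 75), and Egr2 without 7. The number that rose was 3 without any of those 5, and the number that fell was 4 without KO 74 or WT 67 and 5 without WT 62.

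Among the 14 genes of the CD8 T cell marker list, which include the intracellular Lck, Zap70 and Lat, 2 rose and 4 fell. Thy1 had 802 to 955 CPM in KO libraries and 1055 to 1302 CPM in WT, with no overlap (-0.46 ± 0.09, adjusted p = 0.00436). Cd8b1 fell by 0.46 ± 0.13 and Cd247, the zeta chain of the T cell receptor complex, by 0.33 ± 0.09, whereas Cd8a was not called (-0.20 ± 0.11, adjusted p = 0.257). Without KO 68, KO 70, WT 71, WT 72 or WT 75, 2 markers fell. Cd5 and Cd6, paired inhibitors of receptor signalling, rose by 0.71 ± 0.16 and 0.69 ± 0.15, and Cd5 was not called without WT 75 (adjusted p = 0.056). Of 15 genes of inhibitory receptors and their companions 2 rose: Rgs16, a brake on G-protein signalling, by 1.27 ± 0.26 and the receptor Btla by 0.55 ± 0.13. Both stayed called whichever library was left out. Pdcd1 (PD-1) averaged 133 ± 39.9 CPM in KO libraries and 94.9 ± 7.58 CPM in WT (SD, n = 5 each; adjusted p = 0.11), and was called without KO 73 (adjusted p = 0.038).

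Interferon-response genes were lower in KO. Of 37 measured genes of the interferon-gamma response 0 rose and 11 fell, and 36 of 37 had a log2 fold change below 0, with a median of -0.44. Over all genes tested 5868 of 11718 were below 0, with a median of 0.00 to 2 decimals. The fall was not particular to IL12, as the median of the 37 genes was -0.39 with no cytokine and -0.38 with TGFB1. All KO libraries lay below all WT libraries for 10 of the 37, and for 324 (2.76%) of all genes. Irf1, a transcription factor that is itself induced by interferon-gamma (chromosome 11, 53770014 to 53778374, plus strand), had 65.7, 56.8, 62.2, 65.3 and 62.02 CPM in KO, against 89.0, 86.1, 131, 92.3 and 108 CPM in WT. The KO libraries lay in a narrow band below every WT library (-0.70 ± 0.13, adjusted p = 0.00436). Psme2, a subunit of the proteasome activator PA28, had 420, 401, 416, 391 and 424 CPM in KO, against 485, 473, 530, 688 and 751 CPM in WT, and Psmb10, a catalytic subunit of the immunoproteasome, 94.7, 92.2, 99.8, 103 and 96.5 CPM in KO, against 119, 122, 147, 170 and 154 CPM in WT. Neither overlapped (-0.51 ± 0.10 and -0.55 ± 0.13, adjusted p = 0.00432 and 0.0108), and Psme2 was highest in WT 72 and 75.

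The other members that fell were Psmb9 (-0.42), Psmb8 (-0.47), Psme1 (-0.32) and B2m (-0.28) of antigen presentation, and the interferon-induced GTPases Gbp4 (-0.89), Gbp8 (-1.31), Irgm1 (-0.34) and Tgtp1 (-0.70). Psmb9 overlaps Tap1 in the annotation, and the GTPases have close paralogs, so their reads may be split. Leaving out 1 library gave 3 (without WT 75) to 16 (without KO 73) members that fell, with 6 without KO 68, 6 without KO 74 and 7 without WT 72. Over all genes 96 fell without WT 75 and 565 without KO 73. When WT 72 and 75 were left out together 0 members fell, beside 2 of 11921 genes tested (0.0168%), and the list median was -0.32. With the gene length trend removed 10 fell, beside 3.03% of all genes. Tap1, a chain of the peptide transporter of antigen presentation, averaged 339 ± 13.5 CPM in KO libraries and 395 ± 36.6 CPM in WT (SD, n = 5 each) and was not called (edgeR adjusted p = 0.133).

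Of 33 measured type I interferon genes 0 rose and 8 fell, with a median of -0.63. Between KO and WT the median of these genes was -0.93 with no cytokine and -1.20 with TGFB1. Zbp1, a sensor of nucleic acids, had 17.4, 10.9, 14.5, 18.02 and 14.6 CPM in KO, against 24.9, 30.4, 26.97, 23.1 and 28.8 CPM in WT (-0.84 ± 0.22, adjusted p = 0.0232). Isg15, a ubiquitin-like protein, had 1.97, 1.15, 1.90, 1.79 and 1.48 CPM in KO, against 3.28, 4.17, 4.05, 3.16 and 5.80 CPM in WT (-1.32 ± 0.36, adjusted p = 0.0271). Both genes were separated without overlap. Each lost its call without KO 68, KO 70 or WT 75 (adjusted p of 0.051 to 0.105). Isg20, Oasl2, Dhx58, Parp9, Ifit3 and Ifi35 also fell, by 0.46 to 2.54 on the log2 scale. Oasl2 lay at 0.127 to 1.28 CPM in KO libraries and 0.388 to 6.42 CPM in WT. The number that fell ranged from 0 (without KO 68, KO 70 or WT 75) to 13 (without KO 73), with 3 without KO 74, 4 without KO 63 or WT 72 and 5 without WT 71. Over all genes 163, 201 and 96 fell without KO 68, KO 70 and WT 75, and 565 without KO 73. Without WT 72 and 75, 0 members fell, beside 2 of 11921 genes tested (0.0168%), and the list median was -0.63.

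The promoter stretches of 4 of these genes show the 2 motifs known from interferon-induced genes. They are shown so that the letters can be read beside the levels. Each is 120 bases, 5′ to 3′ on the gene's strand, from a RefSeq window around a start of the gene in build GRCm38.p6. Irf1 has another window, which holds neither motif. Capitals mark the ISRE letters (GAAA, any 2 bases, GAAA) in Isg15, Irgm1 and B2m, and the GAS letters TTCNNNGAA in Irf1. The 3 matches in Isg15 and the 2 in Irgm1 overlap each other. The stretches are Irf1 at chr11:53769864-53769983 (plus strand), Isg15 at chr4:156200825-156200944 (minus), Irgm1 at chr11:48871385-48871504 (minus) and B2m at chr2:122147488-122147607 (plus).
Irf1: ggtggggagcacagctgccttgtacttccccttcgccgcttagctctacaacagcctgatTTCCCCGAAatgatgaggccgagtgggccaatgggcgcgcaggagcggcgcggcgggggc
Isg15: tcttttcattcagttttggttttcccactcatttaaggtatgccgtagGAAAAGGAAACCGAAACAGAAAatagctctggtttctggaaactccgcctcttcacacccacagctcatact
Irgm1: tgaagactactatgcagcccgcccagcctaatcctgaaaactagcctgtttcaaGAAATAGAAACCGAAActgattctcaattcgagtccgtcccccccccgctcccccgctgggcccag
B2m: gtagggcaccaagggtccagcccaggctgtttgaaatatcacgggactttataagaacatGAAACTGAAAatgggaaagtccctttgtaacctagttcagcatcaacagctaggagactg
Motifs were searched on both strands in 300-base windows, from 250 bases before to 50 after the start. Of the 19 interferon-list genes that fell, 14 had a window, and 6 of these (42.9%) held the ISRE letters and 5 (35.7%) the GAS letters. Of 51 that were measured and not called 39 had a window, and 24 (61.5%) held the ISRE and 12 (30.8%) the GAS letters. Over the 8805 genes tested that had a window the shares were 3.87% and 8.23%. A gene with several windows was counted once, as holding the letters if any of its windows did. The matches describe letters and were not tested as binding sites.

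**Figure D3:**
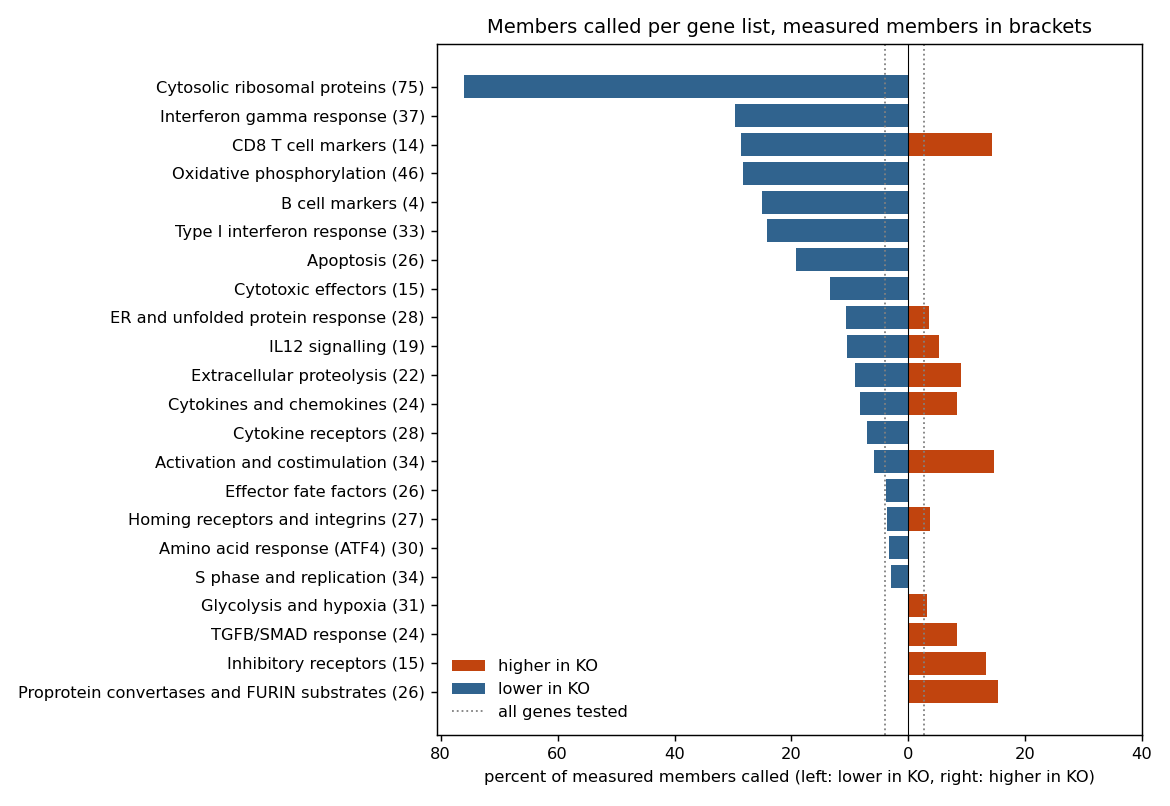
Percent of the measured members of each gene list that were called lower (left) or higher (right) in KO with IL12, for lists with at least 1 call; the dotted lines are the shares over all genes tested, 4.01% lower and 2.76% higher. Ribosomal protein genes have the largest share of the lists shown, with 57 of 75 lower.

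A list of 26 measured genes held proprotein convertases, substrates of FURIN and also Cpd, which is not a convertase. Of these 26 genes 4 rose and 0 fell, with a median log2 fold change of 0.12. Besides Pdgfb and Inhba they were Cpd and Bmp1. Cpd, carboxypeptidase D, which trims the basic residues that convertases leave, had 47.2, 70.5, 72.97, 47.7 and 50.7 CPM in KO, against 36.1, 29.7, 16.7, 13.1 and 10.6 CPM in WT. There was no overlap, and WT 71, 72 and 75 were the lowest (1.46 ± 0.25, adjusted p = 0.00234). Bmp1, a metalloprotease, averaged 2.65 ± 0.90 CPM in KO libraries and 1.39 ± 0.40 CPM in WT (SD, n = 5 each). Its call ended without KO 68, KO 74, WT 71, WT 72 or WT 75 (adjusted p of 0.056 to 0.12). Tgfb1, a substrate of FURIN, averaged 237 CPM in KO libraries and 236 CPM in WT (adjusted p = 0.962), and the convertase Pcsk7 averaged 45.2 CPM in KO libraries and 42.3 CPM in WT (adjusted p = 0.372).

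Among 22 genes of extracellular proteolysis 2 rose and 2 fell. Plaur, the urokinase receptor (chromosome 7, 24462484 to 24475968, plus strand), had 1.16, 0.509, 1.81, 2.73 and 0.988 CPM in KO, against 4.10, 4.17, 8.67, 10.2 and 5.49 CPM in WT (-2.20 ± 0.43, adjusted p = 0.00459), with no overlap. Tmprss6, a transmembrane serine protease, had 0.463, 0.637, 0.776, 2.48 and 0.577 CPM in KO, against 2.32, 1.84, 7.13, 6.84 and 5.08 CPM in WT. KO 73 alone reached the WT range (-2.22 ± 0.43, adjusted p = 0.00436). Adam15, a membrane metalloprotease, rose by 0.49 ± 0.13 and Cst7, a cysteine protease inhibitor, by 0.38 ± 0.11. Both calls ended without KO 68, KO 74 or WT 75 (adjusted p of 0.057 to 0.12), and that of Cst7 also without KO 70, WT 71 or WT 72.

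Other genes with large changes had varied functions. Trim66, a chromatin-binding protein, had 14.5, 25.9, 25.3, 11.9 and 54.4 CPM in KO, against 8.75, 6.01, 8.48, 9.37 and 11.7 CPM in WT. Gucy1a1, a subunit of soluble guanylate cyclase, had 21.6, 34.1, 25.96, 16.1 and 16.3 CPM in KO, against 13.7, 11.9, 5.01, 5.16 and 3.63 CPM in WT. Both groups of values were separate for each gene, with KO 74 high for Trim66 and WT 71, 72 and 75 low for Gucy1a1. Dusp3, a phosphatase, rose by 1.53 ± 0.32, Rxra, a nuclear receptor, by 1.51 ± 0.33, and the kinase Lrrk2 by 2.49 ± 0.56, and these stayed called whichever library was left out. Twist1, a transcription factor, rose by 1.93 ± 0.49 and lost its call without WT 72 or WT 75 (adjusted p = 0.054 and 0.071). Kcnk10, a potassium channel, rose by 1.595 ± 0.40 and lost its call without KO 68, KO 70, WT 72 or WT 75 (adjusted p of 0.052 to 0.073).

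Among the large falls, Susd3 had 14.7, 8.21, 8.88, 27.5 and 23.5 CPM in KO, against 16.7, 20.2, 64.5, 102 and 84.7 CPM in WT, and Ccdc184 had 0.925, 1.21, 1.47, 1.20 and 1.32 CPM in KO, against 2.46, 2.71, 4.62, 7.58 and 3.32 CPM in WT. Susd3 was high in WT 71, 72 and 75, and Ccdc184 did not overlap. Both were called whichever library was left out (-1.80 ± 0.39 and -1.75 ± 0.37). Tnfrsf8, the receptor CD30, was also high in WT 71, 72 and 75, with 13.996, 9.42, 10.7, 46.7 and 65.9 CPM in KO, against 15.99, 23.3, 133, 123 and 159 CPM in WT. Its call (-1.63 ± 0.46) ended without KO 63, KO 68, KO 70, WT 71, WT 72 or WT 75 (adjusted p of 0.079 to 0.14). Gcnt3 (-2.35), Kmo (-1.79), Ramp1 (-1.33) and Ramp3 (-1.33) each lost their call in 5 such fits, always without KO 68, KO 70, WT 72 or WT 75 (adjusted p of 0.051 to 0.14 over all these fits), with Gcnt3 and Ramp1 also without WT 71 and Kmo and Ramp3 also without KO 63. Without KO 73 the log2 fold change of Gcnt3 was -3.53.

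Ribosomal protein genes were lower in KO as a group. Of 75 measured genes of cytosolic ribosomal proteins 0 rose and 57 fell, with a median of -0.32. Rps7 had 585, 587, 634, 618 and 602 CPM in KO, against 685, 730, 879, 1050 and 1172 CPM in WT (-0.58 ± 0.10, adjusted p = 0.00226). Rps15a had 800, 755, 761, 840 and 751 CPM in KO, against 870, 962, 1081, 1367 and 1408 CPM in WT (-0.54 ± 0.09, adjusted p = 0.00226). For both genes the KO libraries lay below all WT libraries and WT 72 and 75 were the highest. These genes have many pseudogenes that can share their reads. Together they took 8.23, 8.36, 8.62, 7.54 and 8.44% of the counts in KO, against 8.47, 8.87, 9.24, 10.99 and 11.4% in WT (two-sided exact permutation p = 0.0159, adjusted p = 0.127 over 16 measures of the libraries). Only WT 62 lay within the KO range. The difference in share without WT 72 and 75 was -0.63 percentage points (exact p = 0.0893) in place of -1.56. In the fit without both, 0 members fell, beside 2 of 11921 genes tested (0.0168%), and the list median was -0.14. Without WT 75 alone 24 members and 96 of all genes fell, without WT 72 alone 26 and 134. With the length trend removed 40 members fell, beside 3.03% of all genes.

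Of 46 nuclear genes of oxidative phosphorylation 0 rose and 13 fell, with a median of -0.22. Atp5h, a subunit of ATP synthase, had 201, 198, 201, 197 and 202 CPM in KO, against 222, 227, 257, 322 and 340 CPM in WT (-0.46 ± 0.09, adjusted p = 0.00436). Cox5b, of cytochrome c oxidase, had 135 to 150 CPM in KO libraries and 154 to 237 CPM in WT (-0.42 ± 0.08, adjusted p = 0.00477). The KO values were nearly equal among themselves, and the WT values highest in WT 72 and 75. The number that fell was 3 without WT 75, 4 without WT 72, 8 without KO 68 or KO 70, 20 without WT 67 and 24 without WT 62. Over all genes 96 fell without WT 75 and 821 without WT 62. Without WT 72 and 75, 0 members fell, beside 2 of 11921 genes tested (0.0168%), and the list median was -0.04. With the length trend removed 9 members fell, beside 3.03% of all genes. Mitochondrially encoded transcripts took 0.711 to 1.69% of the counts in KO and 0.582 to 1.37% in WT (exact permutation p = 0.119, adjusted p = 0.282), and 0 of 7 were called.

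Fold changes followed gene length. Across 11717 genes with a known length, the log2 fold change and the summed length of the exons had a Spearman correlation of 0.281. Genes are not independent replicates, so no p is given. When genes were split into 10 equal bins by length, in the bin with the shortest exons the median log2 fold change was -0.16, with 8 genes higher and 99 lower in KO. In the bin with the longest it was 0.10, with 70 higher and 10 lower. The median exonic length was 6503 bases for genes higher in KO, 2589.5 bases for those lower and 4274 bases for those not called. Leaving out ribosomal protein, oxidative phosphorylation and mitochondrial genes gave 0.274. The correlation was 0.315 with the longest transcript, 0.224 with the genomic span and 0.203 with intron length, and -0.044 with GC content.

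**Figure D4:**
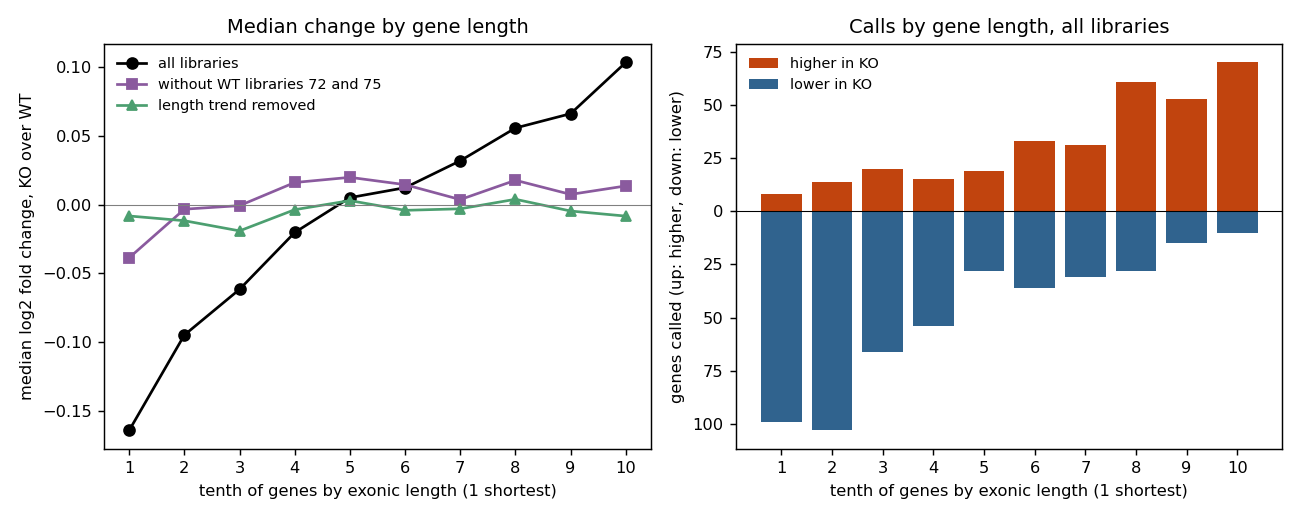
Left, the median log2 fold change (KO over WT with IL12) in each of 10 bins of genes by exonic length, with all libraries, without WT 72 and 75, and with the length trend removed; right, genes called higher and lower in KO in each bin, all libraries. The median runs from -0.16 to 0.10 with all libraries and between -0.04 and 0.02 without WT 72 and 75.

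The trend rested on WT 72 and 75. For each library, the deviation of log2 CPM from the mean of the 10 libraries was regressed on log2 exonic length. The slope per doubling of length was 0.049, 0.016, 0.017, 0.069 and 0.010 in KO, against 0.033, 0.027, 0.0037, -0.098 and -0.13 in WT. In WT 72 and 75 long genes were low and short genes high relative to the other 8 libraries, and WT 62 and 67 lay within the KO range. The means were 0.032 ± 0.026 in KO and -0.032 ± 0.074 in WT (SD, n = 5 each; two-sided exact permutation p = 0.135, adjusted p = 0.282; the smallest p possible is 0.00794). Among numbers up to 70 the means were 0.027 in KO and 0.030 in WT, and among those above 70 they were 0.040 in KO and -0.074 in WT. The labels name no batch at 70, and the mean of -0.074 includes both WT 72 and WT 75. With 1 library left out the exact permutation p ran from 0.0476 (without WT 62) to 0.286 (without KO 73), and only the first was below 0.05. Without WT 72 and 75 it was 0.571. The correlation across genes was 0.041 without WT 72 and 75, while without any other pair of WT libraries it was 0.215 to 0.365. The correlation was 0.015 between KO and WT without cytokine and 0.023 with TGFB1.

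**Figure D5:**
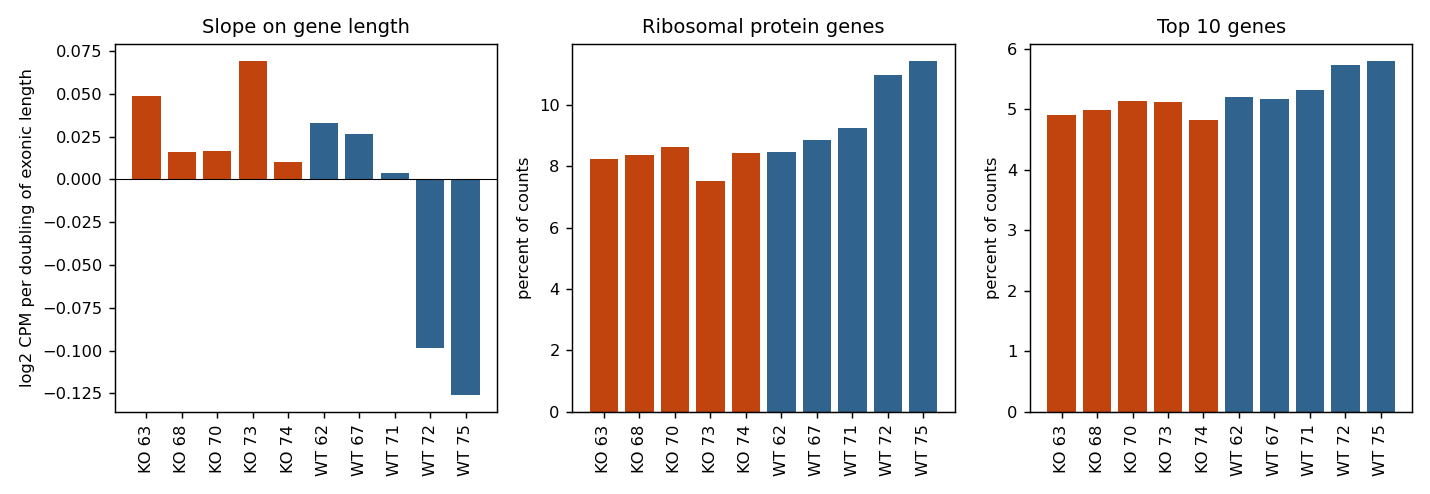
Measures of each library with IL12, KO left and WT right: slope of log2 CPM on log2 exonic length, percent of counts in ribosomal protein genes, and percent of counts in the 10 genes with most counts. WT 72 and 75 have slopes of -0.098 and -0.13 and ribosomal shares of 10.99 and 11.4%.

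The 10 most abundant genes took 4.82 to 5.13% of the counts in KO and 5.17 to 5.79% in WT, which did not overlap (exact permutation p = 0.00794, the smallest possible; adjusted p = 0.127). When a smooth trend on length was removed from each library, 598 genes were called, 243 higher and 355 lower in KO. Of the 794 genes, 217 higher and 304 lower ones stayed called. Whether RNA quality, library preparation or the state of the cells went with the trend was not tested.

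The difference between KO and WT was also compared between culture conditions, by interaction terms over all 30 libraries. Between IL12 and no cytokine the difference was called for 0 of 11718 genes (0%) by edgeR, with 513 at an unadjusted p below 0.05, and for 0 by DESeq2 and by limma-voom. Between IL12 and TGFB1 it was called for 844 genes (7.2%), 422 in each direction, and for 166 (without WT 72) to 1346 (without WT 62) when 1 library was left out. It was 177 to 303 without KO 63, KO 68, KO 70 or WT 75, and 1342 without KO 74. Id3, an inhibitor of E-protein factors, had a KO over WT change of 0.51 with IL12 (adjusted p = 0.192) and -1.66 with TGFB1 (adjusted p = 0.00012), a difference of 2.17. Ubd, an interferon-induced ubiquitin-like protein, had -1.45 with IL12 (adjusted p = 0.0574) and 2.56 with TGFB1 (adjusted p = 0.0006), a difference of -4.01. With IL12, Ubd had 1.39, 0.509, 0.949, 2.22 and 2.88 CPM in KO, against 0.957, 1.45, 2.41, 5.05 and 11.5 CPM in WT, which overlapped, and it was called without WT 62, WT 67, KO 73 or KO 74. Of the genes with values in the text, Cd44, Rel, Jak2, Cd5, Cd6, Dusp2, Gucy1a1 and Atf6 had a higher KO over WT change with IL12 than with TGFB1, and Cd2, Il10, Rps7, Chchd10, Ifi35, Casp8 and Nfil3 a lower one. For Tspan9 the changes were -2.98 with IL12, -2.36 without cytokine and -2.97 with TGFB1. For Irf1 they were -0.70 with IL12, -0.53 without cytokine and -0.55 with TGFB1, and for Pls1 1.96, 1.35 and 1.07 in the same order.

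Of 26 apoptosis genes 0 rose and 5 fell, a larger share than the 4.01% of all genes, namely Fasl, Bad (-0.50), Bmf (-1.09), Birc2 (-0.43) and Casp8 (-0.40). Bmf, which promotes death by binding BCL2 proteins, had 4.40, 2.80, 4.92, 4.36 and 3.87 CPM in KO, against 6.42, 6.88, 8.86, 12.2 and 8.39 CPM in WT, without overlap. Only Fasl of these 5 was called whichever library was left out, and the number that fell was 1 without WT 72 or WT 75, 2 without KO 68 and 3 without KO 70, KO 74 or WT 71. Over all genes 134 fell without WT 72 and 96 without WT 75. Of 26 effector fate factors Nfil3, a transcription factor, alone was called (-1.02 ± 0.23), and not without WT 75 (adjusted p = 0.06). It was joined by other members without KO 73 or WT 67 (2 in all) or WT 62 (3 in all). Eomes averaged 24.5 ± 6.39 CPM in KO libraries and 36.6 ± 7.82 CPM in WT (SD, n = 5 each; adjusted p = 0.176). Of 28 genes of the endoplasmic reticulum 1 rose, the stress sensor Atf6 (0.67 ± 0.13, no overlap), and 3 fell. The number that fell was 0 without KO 68, KO 70, WT 72 or WT 75 and 1 without WT 71. None of 24 naive and memory genes, 30 genes of cholesterol synthesis or 32 genes of G2 and M phase was called by edgeR. Tcf7, a factor of naive and memory cells, had 186, 157, 179, 163 and 88.4 CPM in KO, against 227, 225, 260, 120 and 90.9 CPM in WT, with KO 74, WT 72 and WT 75 the lowest.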

How the data were processed

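Poly(A) RNA was sequenced from all 30 libraries. The deposited table holds raw counts of 55573 Ensembl genes, made by the authors. The submitters' processing notes name FastQC, Trim Galore, STAR, DESeq2 1.24.0 and GRCm38; how reads were counted, on which strand and with which annotation is not given in those notes. Symbols, places and exonic lengths came from GENCODE vM21, in which 55480 genes were found.

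edgeR 4.0.16 in R 4.3.3 was run on the counts as deposited, with TMM scaling, its expression filter (minimum count 10), group means over all 30 libraries and the quasi-likelihood test. Adjusted p values are Benjamini-Hochberg values over 11718 genes. CPM values use the scaled library sizes, and marker sums and shares of counts the raw totals. SE belongs to the log2 fold change, KO over WT. Library measures were compared by exact permutation tests. The same steps were tested on simulated data. DESeq2 1.42.0, limma 3.58.1 (voom), other filters and scalings, a replicate block and fits without libraries were alternatives.

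The genes named are 36 chosen genes, the 12 largest called rises and falls at 4 CPM or more in the higher group, the 10 smallest p, up to 4 called members per list by p, and 6 per difference between conditions. Chosen after their values were seen were some markers and Axl, Chchd10, Tgfb1, Pcsk7, Cd28, Egr2, Cd8b1, Cd247, Casp8, Psmb8, Psme1, B2m, Gbp4, Gbp8, Irgm1, Tgtp1, Dhx58, Parp9, Ifit3 and Ifi35. The values of 1 gene are not reported here. The members and lists were chosen with earlier results of these data known. No libraries were duplicates by the chi-square per degree of freedom between libraries of a genotype. It was 2.35 for KO 68 and KO 70, the pair most alike, and 4.73 to 37.2 for the other pairs. Total counts of 7306151 or more set the precision, and low genes such as Tspan9 rest on few reads.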

Additional observations from a re-analysis of the deposited data

Results flagged for a closer look

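Of 270 sets of 5 values looked at, 22 had 1 library far from the other 4 of its genotype, with a gap above 0.71 of the range. Chance flags about 1 in 20 such sets. KO 74 was that library for 10 of them. It stood high for Furin (463 CPM), Ifng (1425 CPM), Tbx21 (177 CPM), Prf1 (390 CPM), Il2ra (1774 CPM), Il18rap (86.1 CPM), Irf8 (307 CPM), Inhba (16.1 CPM) and Adam15 (19.7 CPM), and low for Psmb8 (362 CPM). KO 73 stood high for Edem1 (381 CPM), Gcnt3 (5.04 CPM), Oasl2 (1.28 CPM) and Tmprss6 (2.48 CPM), and low for Id3 (44.3 CPM). Among the WT libraries, WT 75 stood high for Irf8 (335 CPM), Prf1 (316 CPM), Psmb8 (720.003 CPM) and Psmb9 (208 CPM), and WT 72 for Lrrk2 (2.21 CPM). WT 71 was low for Tspan9 (1.16 CPM), and WT 62 had the lowest total, 7306151 counts.

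For 24 of the genes looked at the KO over WT change with IL12 differed from that with TGFB1 in the edgeR interaction test. Over all genes tested the share was 7.2%. Id3, Ubd, Dusp2, Cyb561a3, Kmt5b and Rnf145 had been chosen by their small p in this same test. Many of the others were chosen as called with IL12, so the count is no result about these genes. The difference, IL12 minus TGFB1 on the log2 scale, was 2.34 for Gucy1a1, 2.17 for Id3, 1.51 for Il18r1, 1.15 for Dusp2, 1.10 for Cyb561a3, 1.00 for Cd6, 0.95 for Atf6, 0.94 for Rel, 0.88 for Cd5 and 0.83 for Rnf145. It was 0.73 for Cd44, 0.65 for Jak2, 0.64 for Kmt5b and 0.61 for Pfkfb3. It was below 0 for the interferon-induced Ubd (-4.01), the cytokine Il10 (-4.89), the IL2 receptor chain Il2ra (-1.25), Nfil3 (-1.20), Cd2 (-0.86), Casp8 (-0.67), Chchd10 (-0.66), Ifi35 (-0.66), Gm7776 (-0.46) and Rps7 (-0.44).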

How the results depend on the processing

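Which libraries enter the fit changed the results most, and the cause was not tested. The 794 genes called became 504 with no filter, 45 in the IL12 libraries alone, 367 in those with a term for numbers above 70, and 59 in those with the length trend removed. They became 8 without WT 72 and 75 and 6 without KO 74 as well. Leaving out 1 library gave 174 to 1530 and leaving out a pair of WT libraries 3 to 2664. The 844 genes that differed between IL12 and TGFB1 became 559 with no filter, 1504 with DESeq2, and 166 to 1346 with 1 library left out. The length correlation was 0.128 with no filter, 0.041 without WT 72 and 75, 0.083 without KO 74 as well, 0.0071 with the trend removed and 0.00051 with it removed in the IL12 libraries alone. It was 0.189 to 0.329 with 1 library left out and 0.215 to 0.365 without other pairs. The difference in slope was 0.041 to 0.081 with 1 library left out, and that in ribosomal share -1.90 to -1.16 (exact p = 0.0635 without KO 63 and 0.0714 without KO 73) and -0.63 without WT 72 and 75.

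With WT 72 and 75 left out, with or without KO 74, 0 members fell in the interferon-gamma, type I interferon, ribosomal and oxidative phosphorylation lists. Over all genes only 2 of 11921 (0.0168%) fell with KO 74 kept, and 3 of 11879 with it left out. With KO 74 kept, the medians of the 2 interferon lists were -0.32 and -0.63. In the IL12 libraries alone 2, 2, 0 and 0 members fell in the order of the lists above, and with the length trend removed there 3, 2, 0 and 0. Over all 11141 genes of these fits 21 and 29 fell. With no filter 37 ribosomal and 8 oxidative phosphorylation genes fell, and 7 and 1 in the IL12 libraries alone with the number term. Over all genes 251 of 25255 and 174 of 11141 fell in these fits, in that order. With 1 library left out, the counts were 3 to 16, 0 to 13, 24 to 70 and 3 to 24.

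KO and WT share no numbers, so a replicate block ties libraries across conditions only. Same-numbered libraries had a median correlation of deviations of 0.222 (-0.034 to 0.43; over 0.1 in 26 of 30 pairs), and 13 of 30 libraries correlated best with their own number. With the replicate block 939 genes were called, 1986 between IL12 and TGFB1, and the length correlation was 0.279.

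Over 27 alternatives and 110 named genes, 2438 of 2955 values kept direction and side of the threshold, 464 lost a call, 16 gained one and 37 changed sign, all in genes not called. Gzmc became 0.020 with the number term, 0.13 with it in the IL12 libraries alone, 0.77 without WT 72 and 75, 0.39 without KO 74 as well, 0.032 and 0.030 with the length trend removed in all and in IL12 libraries, and -0.54 to 0.13 with 1 library left out. In the IL12 libraries alone with the number term and without WT 72 and 75, Ifng became 0.13 and 0.53, Il18r1 0.13 and 0.18, and Tbx21 0.13 and 0.22. Tbx21 was also 0.0026 with the number term, 0.025 and 0.028 with the trend removed, 0.0083 after thinning, 0.022 without WT 72, 75 and KO 74, and -0.21 to 0.083 with 1 library left out. Il18rap became -0.0012 in females, -0.038 and -0.036 with the trend removed, -0.044 after thinning, -0.061 without WT 72, 75 and KO 74, and -0.20 to 0.14 with 1 library left out. With 1 library left out, Il2ra was -0.061 (without KO 74) to 0.12, Prf1 -0.037 (without KO 74) to 0.32 and Smad7 -0.24 to 0.039 (without WT 71). The alternatives without 3 libraries, without WT pairs and with the trend removed in IL12 libraries alone were chosen after seeing the data.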
